A study of Mus musculus with 15 samples.

Results

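The aryl hydrocarbon receptor gene Ahr and 4 genes that the receptor is known to induce, Cyp1a1, Cyp1a2, Cyp1b1 and Tiparp, were followed in mouse liver. They were chosen by gene symbol, and all 5 were found among the 20325 genes of the table. Cyp1a2 carried nearly all of the Cyp1 message in these livers. It was lower on a high-fat high-sucrose diet (HF/HS) than on chow, both with and without a microbiota, and on that diet it was lower in colonized than in germ-free livers. On chow it ran the same way without meeting the threshold of the test, and a change of this difference with diet was not shown. Cyp1a1, which was scarce, was also lower on HF/HS with and without a microbiota, in most but not all alternative settings. Cyp1b1, Ahr and Tiparp met the threshold of the test in no comparison.

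The 5 groups held 3 male C57BL/6J mice each, all dissected at 19 weeks of age, and liver RNA was sequenced from stranded libraries of polyadenylated RNA. Conventionally raised (ConvR) mice on HF/HS, germ-free (GF) mice on HF/HS, conventionalized (ConvD) mice on chow, ConvR mice on chow and GF mice on chow were compared. ConvR mice acquired a microbiota from birth, whereas ConvD mice lived without one up to the age of 15 weeks, then received 0.2 ml of cecal contents of ConvR donors on chow by a single gavage, and were studied 4 weeks later. Diets began after 3 weeks of age. HF/HS provided 44.6% of its energy as fat, 40.6% as carbohydrate and 14.8% as protein, and chow 23.7%, 53.2% and 23.1%. Cages held mice of a single status and diet, GF and ConvR mice lived in separate isolators and ConvD mice in sealed cages, so that cage and isolator cannot be told apart from the group.

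The aryl hydrocarbon receptor is a ligand-activated transcription factor of the basic helix-loop-helix PAS family. It waits in the cytosol with HSP90 and the co-chaperone p23, and after binding a ligand it moves to the nucleus, pairs with ARNT and binds xenobiotic response elements, whose core reads GCGTG. Ligands include dioxins and polycyclic aromatic hydrocarbons, and also indoles that bacteria or the diet provide and metabolites of tryptophan. In liver the receptor is best known for inducing the Cyp1 monooxygenases, of which CYP1A2 is the constitutive hepatic enzyme, and the repressors TIPARP and AHRR limit its activity.

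Cyp1a1 and Cyp1a2 are neighbours on chromosome 9 and are read in opposite directions. The bases before their transcription starts are shown because these are the members whose levels changed with diet. They are given from RefSeq on GRCm38.p6, a later build than the mm9 used for the counts, with the GCGTG core in capitals, as chr9:57697363-57697612 on the plus strand for Cyp1a1 and chr9:57683656-57683905 on the minus strand for Cyp1a2.
Cyp1a1: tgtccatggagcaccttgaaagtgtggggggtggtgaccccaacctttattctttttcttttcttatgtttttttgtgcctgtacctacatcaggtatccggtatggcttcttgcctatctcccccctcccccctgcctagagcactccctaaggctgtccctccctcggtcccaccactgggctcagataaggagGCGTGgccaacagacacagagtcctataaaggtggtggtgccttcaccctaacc
Cyp1a2: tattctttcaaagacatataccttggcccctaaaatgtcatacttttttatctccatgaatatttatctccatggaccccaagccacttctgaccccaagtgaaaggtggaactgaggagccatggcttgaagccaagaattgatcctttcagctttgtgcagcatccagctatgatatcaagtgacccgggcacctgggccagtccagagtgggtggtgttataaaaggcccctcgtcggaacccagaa
In Cyp1a1 the core lay 54 bases before the start. No match on either strand stood in the window of Cyp1a2, which reached 250 bases before the start and 50 bases after it. A TATAAA box stood 30 bases before the start of Cyp1a1 and 29 bases before that of Cyp1a2. Both other genes with an entry had the core on the opposite strand, where it reads CACGC, 76 bases before the start of Cyp1b1 on chromosome 17 and 170 bases before that of Tiparp on chromosome 3. Stretches of 30 bases around it are given for comparison.
Cyp1b1: cgtcccgcccctCACGCcccaccccctaag
Tiparp: ctccgtccggagCACGCgcacgggaggcgg
Of 32851 mouse promoter windows of 300 bases, 10639 (32.4%) held GCGTG on at least 1 strand, and 4473 (13.6%) held TATAAA. A match describes the letters only.

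Libraries held between 14737578 and 21794811 expected counts. As a check of the tissue, 8 hepatocyte markers were abundant in every library and summed to between 54230 and 131500 CPM (counts scaled to the library total after TMM normalization). Alb, with a mean of 69960 CPM over the libraries, made up most of that sum. A few libraries stood apart in ways that touch the members. Acute phase transcripts summed to 68360 and 90050 CPM in ConvR chow mice 1 and 2, to 13160 CPM in ConvR chow mouse 3 and to between 9184 and 14190 CPM in the other 12 libraries. Immediate early transcripts summed to 1878, 538.6 and 258.8 CPM in GF chow mice 1, 2 and 3, and to between 105.4 and 250.3 CPM elsewhere. In a bulk sample, fewer cells of a type and less RNA per cell cannot be told apart.

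Levels between genes are compared per length, in TPM, the deposited unit scaled by gene length and library. Cyp1a2 ranged over the 15 libraries between 193 and 805 TPM and ranked 206 of 20325 genes by its mean. Ahr ranged between 7.06 and 16.3 TPM, Tiparp between 1.94 and 4.55 TPM, Cyp1a1 between 0.22 and 1.18 TPM and Cyp1b1 between 0.08 and 0.37 TPM. Cyp1a2 thus made up between 99.5% and 99.9% of the TPM of the 3 Cyp1 genes. Precision differed in the same way, since Cyp1a2 rested on at least 3706 expected counts in each library, Ahr on at least 470, Tiparp on at least 100, Cyp1a1 on between 7.14 and 40.8 and Cyp1b1 on between 5 and 24. All 5 members passed the filter on low counts. Cyp1b1 reached 10 counts in only 7 libraries, all from ConvR or ConvD mice, so it passed through the groups in which it was higher.

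**Figure D1:**
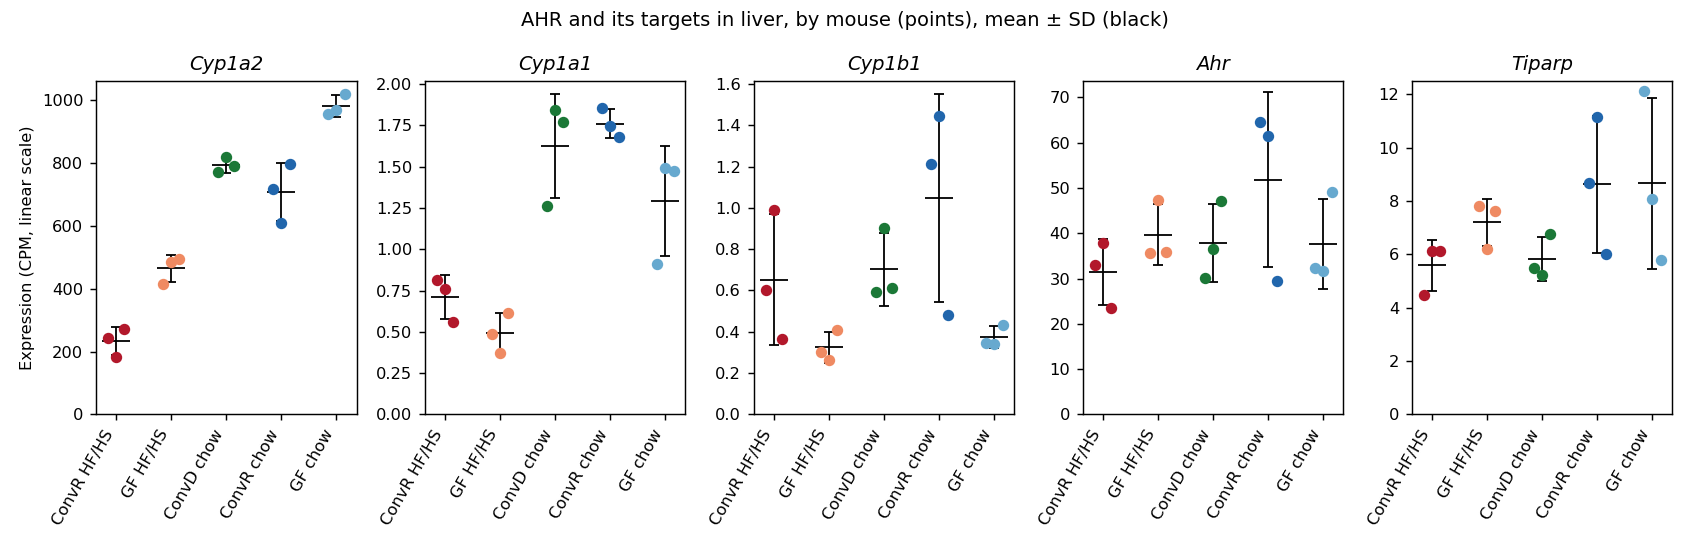
CPM of the 5 members, a panel each with its own linear scale, in each of the 15 libraries (points), by group, with the group mean and SD in black. Cyp1a2 stood lowest in ConvR HF/HS livers (183 to 272 CPM) and highest in GF chow livers (953 to 1017 CPM), while the groups of Ahr and Tiparp overlapped in most comparisons.

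Ahr, the receptor gene, had 33.0, 37.8 and 23.4 CPM in ConvR HF/HS livers, 35.7, 47.4 and 35.9 CPM in GF HF/HS livers and 30.0, 36.6 and 47.1 CPM in ConvD chow livers. It had 64.5, 61.5 and 29.5 CPM in ConvR chow livers and 32.3, 31.6 and 49.1 CPM in GF chow livers. ConvR chow mice 1 and 2, the libraries with the high acute phase sums, held the highest values, and mouse 3 of that group lay among the other groups. Means were 31.4 ± 7.34 CPM in ConvR HF/HS, 39.7 ± 6.72 CPM in GF HF/HS, 37.9 ± 8.63 CPM in ConvD chow, 51.9 ± 19.4 CPM in ConvR chow and 37.7 ± 9.92 CPM in GF chow livers (SD, n = 3 each). Every pair of groups tested overlapped, so that the order of these means was not resolved. The difference with the smallest p was that of HF/HS against chow in ConvR mice, with a log2 fold change of -0.72 ± 0.28 (SE) and an edgeR adjusted p of 0.0946. It was -1.01 with an adjusted p of 0.00933 without ConvR chow mouse 3, and 0.087 without ConvR chow mice 1 and 2. The part of the acute phase state in these values was not tested.

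Partners of the receptor were read from a list of 7 genes, of which 5 could be tested. Arnt, the dimerization partner, averaged between 32.7 and 40.3 CPM in the 5 groups and was called in no comparison, and neither were the HSP90 genes Hsp90aa1 and Hsp90ab1. Ptges3, which encodes the co-chaperone p23, had 70.9, 72.7 and 77.5 CPM in ConvR chow livers, against 54.8, 54.0 and 63.0 CPM in GF chow livers. Against GF chow it was higher in ConvR chow livers (log2 fold change 0.36 ± 0.08, edgeR adjusted p = 0.0282), in ConvD chow livers (0.45 ± 0.08, adjusted p = 0.0101) and in GF HF/HS livers (0.35 ± 0.08, adjusted p = 0.0198). These 3 comparisons share the GF chow libraries. Ahrr, the repressor that competes for ARNT, reached at most 8 counts and Arnt2 at most 2, and neither passed the filter.

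Cyp1a2, the constitutive hepatic enzyme that oxidizes caffeine and aromatic amines, had 244, 183 and 272 CPM in ConvR HF/HS livers and 414, 484 and 494 CPM in GF HF/HS livers. It had 769, 818 and 788 CPM in ConvD chow livers, 717, 608 and 795 CPM in ConvR chow livers and 953, 969 and 1017 CPM in GF chow livers. All 6 livers on HF/HS were below all 9 livers on chow. Within each diet, all ConvR livers were below all GF livers. Means were 233 ± 45.5 CPM in ConvR HF/HS, 464 ± 43.6 CPM in GF HF/HS, 792 ± 24.6 CPM in ConvD chow, 707 ± 93.6 CPM in ConvR chow and 979.7 ± 33.6 CPM in GF chow livers (SD, n = 3 each). In order of level the groups ran ConvR HF/HS, GF HF/HS, ConvR chow, ConvD chow and GF chow. Of the neighbours in this order, ConvR and GF on HF/HS differed past the threshold, and ConvD and ConvR on chow and ConvD and GF on chow did not. GF HF/HS and ConvR chow livers, which differ in both diet and status, did not overlap and were not tested.

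With HF/HS, Cyp1a2 fell to 0.330 of its chow level in ConvR mice (log2 fold change -1.60 ± 0.14, edgeR adjusted p = 4.37e-05) and to 0.474 of it in GF mice (-1.08 ± 0.14, adjusted p = 0.00126). Cyp1a1, the enzyme most strongly induced by the receptor and scarce in uninduced liver, had 0.813, 0.757 and 0.559 CPM in ConvR HF/HS livers, against 1.86, 1.74 and 1.68 CPM in ConvR chow livers. In GF mice it had 0.485, 0.375 and 0.616 CPM on HF/HS, against 0.909, 1.49 and 1.47 CPM on chow. The groups did not overlap in either status. Cyp1a1 fell with HF/HS by 1.32 ± 0.26 on the log2 scale in ConvR mice (adjusted p = 0.00459) and by 1.36 ± 0.29 in GF mice (adjusted p = 0.0143). Thus 2 of the 5 members were lower on HF/HS in ConvR mice, where 14.6% of the 12377 genes tested were called and 7.8% were lower. In GF mice 2 of 5 members were lower, where 9.55% of the genes were called and 5.45% were lower. Cyp1b1, Ahr and Tiparp were called in neither status. With single libraries left out, the genes called in ConvR mice, 1802 with all libraries, numbered between 991 (without ConvR HF/HS mouse 2) and 2579 (without GF chow mouse 1). In GF mice, with 1182 called, they numbered between 304 (without GF HF/HS mouse 3) and 1444 (without ConvR chow mouse 3).

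The Cyp1a2 calls with diet held in all 26 alternative settings. In ConvR mice the Cyp1a1 call was lost when ConvR chow mice 1 and 2 were left out (-1.26 on the log2 scale, adjusted p = 0.0993), and in GF mice when the compared groups were fitted alone (-1.35, adjusted p = 0.0761) or without GF HF/HS mouse 1 (-1.36, adjusted p = 0.0534) or 2 (-1.17, adjusted p = 0.0676). On log2(TPM + 1), a scale that understates changes of scarce transcripts, Cyp1a1 differed by -0.36 in ConvR and -0.43 in GF mice and kept both calls.

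**Figure D2:**
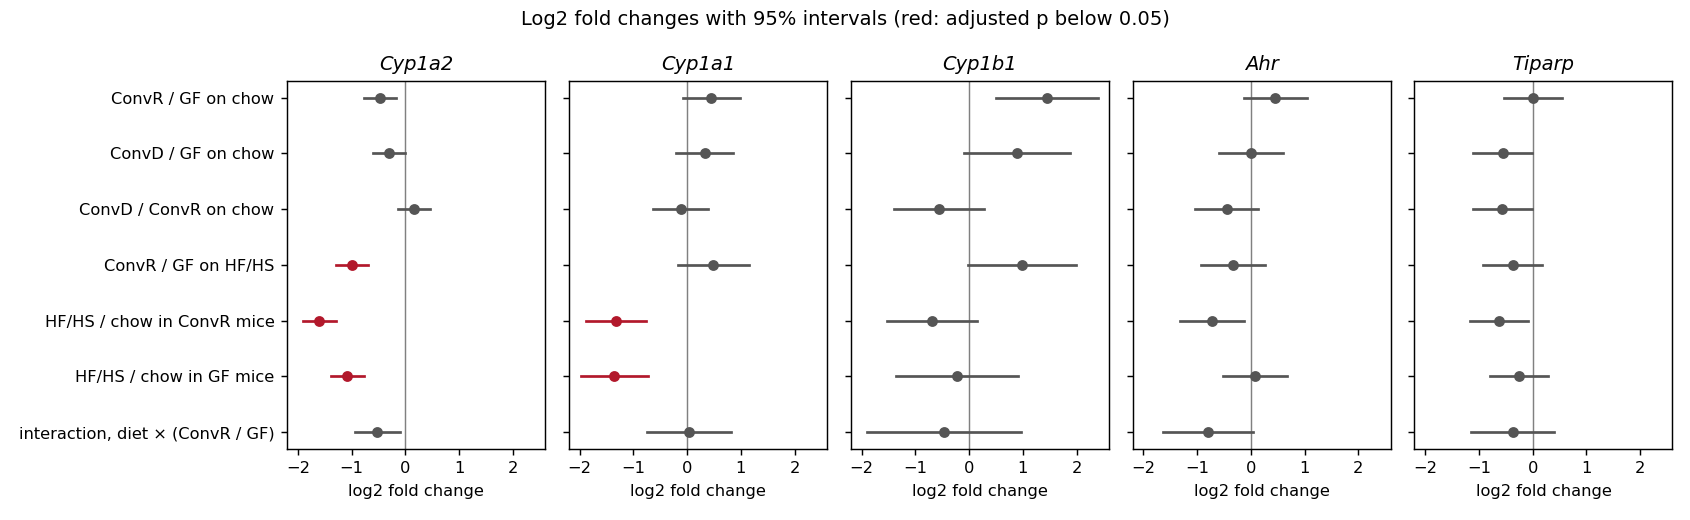
Log2 fold changes of the 5 members (points, a panel each) in the 6 comparisons of groups and, in the bottom row, the interaction of diet and status, with 95% intervals, where red marks an adjusted p under 0.05. Cyp1a2 lay at -1.60 and -1.08 with HF/HS in ConvR and GF mice and at -0.99 for ConvR against GF on HF/HS, and Cyp1a1 at -1.32 and -1.36 with HF/HS.

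Markers of several cell types moved with diet beside these results, whereas the summed perivenous markers overlapped between diets in either status. Of 10 perivenous hepatocyte genes, the zone in which Cyp1a2 is known to be expressed, 1 was higher (Glul, log2 fold change 0.51) and 1 lower (Cyp7a1, -1.63) with HF/HS in ConvR mice, with a median of -0.206 beside -0.0152 over all genes. In GF mice 0 were higher and 2 lower (Oat and Rhbg), with a median of 0.0105 beside -0.00881. Their summed level was 7616 to 7871 CPM in ConvR HF/HS livers and 7012 to 7892 CPM in ConvR chow livers. In GF mice it was 8828 to 10640 CPM on HF/HS and 7962 to 10910 CPM on chow. Cyp2e1, with a mean of 5909 CPM over all libraries, made up most of this sum, so that the overlap speaks mainly of that gene. Sinusoidal endothelial markers were higher with HF/HS for 4 of 8 genes in either status, and summed to 289.2 to 347.6 CPM in ConvR HF/HS livers, 287.1 to 327.5 CPM in GF HF/HS livers, 249.2 to 282.9 CPM in ConvR chow livers and 215.7 to 272.3 CPM in GF chow livers. Acute phase genes were lower for 14 of 14 genes with HF/HS in ConvR mice (median -3.41) and for 1 of 14 in GF mice. Immediate early genes were lower for 10 of 16 in GF mice (median -2.88) and for 0 of 16 in ConvR mice. Of 5 neutrophil markers 3 could be tested, and all 3 were lower in ConvR mice (median -3.28) and 0 in GF mice. The 5 together summed to 1.43 to 2.55 CPM in ConvR HF/HS livers, 0.757 to 1.47 CPM in GF HF/HS livers, 3.68 to 32.6 CPM in ConvR chow livers and 1.11 to 7.78 CPM in GF chow livers. ConvR chow mice 1 and 2 held 19.1 and 32.6 CPM, and mouse 3 held 3.68 CPM. Markers this scarce may have passed the filter on low counts through mice 1 and 2, so their calls are no independent support. Of 4 adipocyte markers only Cfd could be tested, and it was higher in ConvR (log2 fold change 3.1) and GF mice (3.56). The adipocyte sum was 2.46 to 5.74 CPM in ConvR HF/HS livers, 3.15 to 11.6 CPM in GF HF/HS livers, 0.0603 to 1.15 CPM in ConvR chow livers and 0.343 to 0.826 CPM in GF chow livers, while Plin1 was at 0 in every library and Adipoq reached at most 3 counts. Hepatocyte markers were called for 0 of 8 genes in either status, with medians of -0.134 in ConvR and 0.163 in GF mice. Yet their sum was higher in GF HF/HS livers (124500 to 131500 CPM) than in GF chow livers (89890 to 103600 CPM), without overlap. In ConvR mice it was 89420 to 92590 CPM on HF/HS and 54230 to 92150 CPM on chow, which overlapped. Alb made up most of this sum on average. The part of these shifts in the Cyp1 results was not tested.

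On HF/HS, Cyp1a2 was lower with a microbiota, at 244, 183 and 272 CPM in ConvR livers, against 414, 484 and 494 CPM in GF livers. Its log2 fold change was -0.99 ± 0.14 (fold 0.502, edgeR adjusted p = 0.00533) and ranked 11 by p among 12377 genes. It was the only member called, 1 of 5, where 1.62% of the genes tested were called and 0.735% were lower. Those 200 genes became 16 without GF HF/HS mouse 2 and 454 without GF chow mouse 1, the extremes over single libraries left out. Tiparp had 4.49, 6.14 and 6.14 CPM in ConvR livers and 7.79, 6.20 and 7.63 CPM in GF livers. Its groups did not overlap, yet its log2 fold change of -0.37 ± 0.26 was not called (adjusted p = 0.549). Cyp1b1, which passed the filter through the ConvR and ConvD groups, had 0.605, 0.990 and 0.364 CPM in ConvR livers and 0.304, 0.263 and 0.407 CPM in GF livers, which overlapped. Cyp1a1 (log2 fold change 0.48, 95% interval -0.18 to 1.15), Cyp1b1 (0.99, -0.014 to 1.99) and Ahr (-0.34, -0.93 to 0.25) were not called either. The Cyp1a2 difference was called in all 26 alternatives, with adjusted p up to 0.0394 and log2 fold changes between -1.11 and -0.80. Perivenous markers had 1 of 10 genes lower in the same comparison (Gulo, -0.64) and a median of -0.3 beside -0.00738 over all genes. Their sums did not overlap, at 7616 to 7871 CPM in ConvR HF/HS livers, against 8828 to 10640 CPM in GF HF/HS livers. The 8 hepatocyte markers summed to 89420 to 92590 CPM in ConvR HF/HS livers, against 124500 to 131500 CPM in GF HF/HS livers, again without overlap, with a median log2 fold change of -0.442, although none of them was called. No acute phase gene of 14 was called. On average Cyp2e1 made up most of the perivenous sum and Alb most of the hepatocyte sum. The part of the hepatocyte and perivenous shifts in the Cyp1a2 difference was not tested.

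On chow, 0 of 5 members were called between ConvR and GF livers, where 4.72% of the genes tested were. An unadjusted p under 0.05 was held by 2 members and by 2895 of the 12377 genes tested. The 584 genes called became 46 without ConvR chow mouse 2 and 1641 without ConvR chow mouse 3, the extremes over single libraries left out. DESeq2 called 1 member, where it called 1047 of the genes tested, and limma-voom called 0 members. Cyp1a2 was lower in all 3 ConvR livers than in all 3 GF livers, with a log2 fold change of -0.47 ± 0.14 (95% interval -0.77 to -0.17) and an edgeR adjusted p of 0.0651. It passed the threshold in 5 of 26 alternatives, with adjusted p between 0.0124 and 0.632 over all of them. Beside it, perivenous markers were lower for 1 of 10 genes (Oat, -0.51), with a median of -0.227 beside -0.00328 over all genes, and summed to 7012 to 7892 CPM in ConvR chow livers, against 7962 to 10910 CPM in GF chow livers. Hepatocyte markers were called for 0 of 8 genes, with a median of -0.373, and summed to 54230 to 92150 CPM in ConvR chow livers, against 89890 to 103600 CPM in GF chow livers. These sums, too, rest mostly on Cyp2e1 and Alb. The part of both marker lists in the Cyp1a2 values was not tested. Cyp1b1, the extrahepatic family member that oxidizes estradiol and is found in stellate cells, had 1.21, 1.45 and 0.482 CPM in ConvR chow livers and 0.344, 0.343 and 0.435 CPM in GF chow livers. Its log2 fold change was 1.46 ± 0.44 (adjusted p = 0.0723), and without ConvR chow mouse 3 it was 1.79 (adjusted p = 0.00921). Without ConvR chow mice 1 and 2 it was 0.35. Cyp1b1 passed the filter on low counts only through the groups in which it was higher, so these p-values are no independent support for a difference.

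Beside Cyp1b1, stellate cell markers were higher in ConvR chow livers for 2 of 12 genes (Lum, log2 fold change 1.23, and Dcn, 0.53), and summed to 459.9 to 507.5 CPM in ConvR chow livers and 416.7 to 471.1 CPM in GF chow livers. Acute phase genes were higher for 12 of 14, and immediate early genes lower for 9 of 16. Their part in the Cyp1b1 values was not tested. Cyp1a1 had 1.86, 1.74 and 1.68 CPM in ConvR chow livers and 0.909, 1.49 and 1.47 CPM in GF chow livers, which did not overlap, with a log2 fold change of 0.45 (95% interval -0.083 to 0.98, adjusted p = 0.289).

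In ConvD mice, colonized as adults, 0 of 5 members were called against GF livers on chow, where 5.59% of the genes tested were. An unadjusted p under 0.05 was held by 2 members and by 3004 of the 12377 genes tested. The 692 genes called became 83 without ConvD chow mouse 1 and 982 without GF chow mouse 2. DESeq2 and limma-voom called 0 of the 5 members, although DESeq2 called 1159 of the genes tested. Cyp1a2 had 769, 818 and 788 CPM in ConvD livers, below the 953, 969 and 1017 CPM of GF livers, and the log2 fold change was -0.31 ± 0.14 (adjusted p = 0.190). Perivenous markers were lower there for 2 of 10 genes (Oat and Gulo), with a median of -0.308, and their part was not tested. Cyp1b1 had 0.591, 0.904 and 0.610 CPM in ConvD livers, above the 0.344, 0.343 and 0.435 CPM of GF livers, and its log2 fold change was 0.90 ± 0.46 (adjusted p = 0.248). Here too it had passed the filter through the groups in which it was higher. Cyp1a1 had 1.26, 1.84 and 1.77 CPM in ConvD livers, which overlapped GF livers (0.33 ± 0.25, adjusted p = 0.436). Tiparp had 5.49, 5.24 and 6.77 CPM in ConvD livers and 12.1, 8.06 and 5.80 CPM in GF livers, and the log2 fold change was -0.56 ± 0.26 (adjusted p = 0.198). GF chow mouse 1, with the highest immediate early sum, held the highest Tiparp level of all 15 libraries, and without it the log2 fold change was -0.24. Against ConvR livers on chow, again 0 of 5 members were called in ConvD livers, where 5.5% of the genes were. The 681 genes called became 16 without ConvD chow mouse 2 and 1595 without ConvR chow mouse 3. An unadjusted p under 0.05 was held by 1 member and by 2898 of the 12377 genes tested, and 0 members were called by DESeq2 or limma-voom. Cyp1a2 differed there by 0.16 on the log2 scale (95% interval -0.13 to 0.46) and Tiparp by -0.57 (-1.12 to -0.017).

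Tiparp, which encodes an ADP-ribosyltransferase that the receptor induces and that feeds back on it, varied most within the ConvR chow and GF chow groups. Its means were 5.59 ± 0.95 CPM in ConvR HF/HS, 7.21 ± 0.876 CPM in GF HF/HS, 5.83 ± 0.819 CPM in ConvD chow, 8.62 ± 2.56 CPM in ConvR chow and 8.66 ± 3.20 CPM in GF chow livers (SD, n = 3 each). ConvR chow mice 1 and 2 had 8.69 and 11.2 CPM and mouse 3 had 6.03 CPM. With HF/HS in ConvR mice its log2 fold change was -0.63 ± 0.26 (edgeR adjusted p = 0.116), and -0.83 (adjusted p = 0.0379) without ConvR chow mouse 3. That was the only 1 of 26 alternatives in which it passed the threshold. With single libraries left out it lay between -0.83 and -0.40, with adjusted p up to 0.389, and over all alternatives between -0.83 and -0.11.

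Whether the ConvR against GF difference itself changed with diet was tested by the interaction. For Cyp1a2 it was -0.52 ± 0.20 on the log2 scale, with an unadjusted p of 0.0185 and an edgeR adjusted p of 0.310, so that the larger ConvR against GF difference on HF/HS was not shown to differ from that on chow. Of 5 members 0 were called, as were 0% of the genes tested, of which 1573 had an unadjusted p under 0.05, and 450 genes were called without ConvR chow mouse 3. DESeq2 called 109 genes and limma-voom 0, with 0 members in either. The intervals of the other members included 0, at -0.74 to 0.81 for Cyp1a1, -1.90 to 0.96 for Cyp1b1, -1.63 to 0.040 for Ahr and -1.15 to 0.40 for Tiparp.

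Cyp1a1 was also set against Cyp1a2 within each liver. The expected count of Cyp1a1 was 0.333%, 0.413% and 0.205% of that of Cyp1a2 in ConvR HF/HS livers, against 0.117%, 0.0775% and 0.125% in GF HF/HS livers. On chow it was 0.259%, 0.287% and 0.212% in ConvR livers, against 0.0954%, 0.154% and 0.145% in GF livers, and 0.164%, 0.225% and 0.224% in ConvD livers. All ConvR livers were above all GF livers on the same diet. The log2 ratio was higher in ConvR mice by 1.55 on HF/HS and by 0.96 on chow, with a mean of 1.25. The ratio was chosen after its values were seen and contains the lower Cyp1a2 of ConvR livers, so it is given as a description with no test. Within the 9 chow livers the log2 CPM of the pair had a Pearson r of -0.514 and a Spearman rho of -0.467 (exact permutation p = 0.145 and 0.213), and within the 6 HF/HS livers -0.683 and -0.6 (exact permutation p = 0.133 and 0.242). On deviations from group means r was 0.21 on chow and -0.286 on HF/HS, so that the sign on chow turned within groups. No pooled value is given because the diets form separate clusters. Of the 12 relations within diets, none had an adjusted p below 0.453, and without the 2 livers farthest in Cyp1a1 r was -0.755 on chow and -0.526 on HF/HS.

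**Figure D3:**
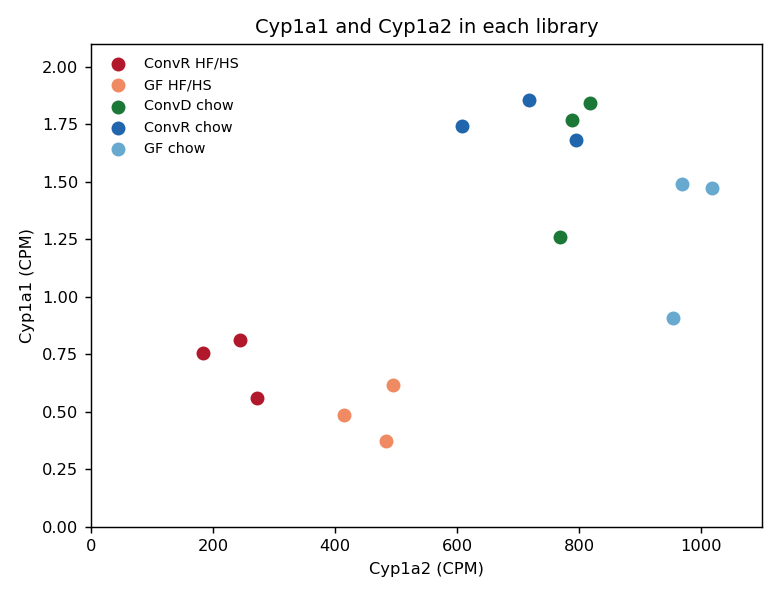
Cyp1a1 against Cyp1a2 in each library, in CPM, with a colour for each group. On either diet the ConvR livers sit at lower Cyp1a2 than the GF livers (183 to 272 against 414 to 494 CPM on HF/HS).

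Other genes listed as responsive to the receptor were read from a list of 18, of which 15 could be tested. Lrat is on this list and also on the stellate cell list. Between ConvR and GF livers on HF/HS 2 were higher and 0 lower, with a median log2 fold change of 0.139 beside -0.00738 over all genes. Ugdh, which makes UDP-glucuronic acid for conjugation, had 146, 189 and 155 CPM in ConvR HF/HS livers, against 89.0, 92.4 and 97.0 CPM in GF HF/HS livers (log2 fold change 0.81 ± 0.16, edgeR adjusted p = 0.0201). Htatip2 averaged 19.5 ± 4.10 CPM in ConvR HF/HS livers and 12.4 ± 0.64 CPM in GF HF/HS livers (SD, n = 3 each), which did not overlap (log2 fold change 0.66 ± 0.15, adjusted p = 0.0438). Both were higher in the comparison in which Cyp1a2 was lower.

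With HF/HS in GF mice, a comparison that shares the GF HF/HS libraries, Ugdh and Htatip2 were lower, Ugdh by 0.96 and Htatip2 by 1.01 on the log2 scale, and none of the 15 was called higher (median -0.506 beside -0.00881). Fmo2, a flavin monooxygenase gene, had 5.87, 7.16 and 7.36 CPM in GF HF/HS livers, against 4.46, 4.80 and 3.87 CPM in GF chow livers, which did not overlap, but its log2 fold change of 0.63 ± 0.23 was not called (adjusted p = 0.0992). Several uncalled genes of the list were lower without overlap. Among them, Gsta2 had 5.69, 6.99 and 8.10 CPM in GF HF/HS livers, against 16.9, 19.2 and 31.3 CPM in GF chow livers. The share of all genes without overlap was not computed. In ConvR mice on HF/HS, Nfe2l2, which encodes the oxidative stress factor NRF2, was higher (0.42 ± 0.09, adjusted p = 0.00926) and the lysosomal transporter gene Slc46a3 was lower (-1.04 ± 0.21, adjusted p = 0.00459), with a median of -0.132 beside -0.0152. On chow 0 of 15 were called for ConvR against GF (median -0.101) and for ConvD against GF (0.189), and Ugt1a6b was higher in ConvD than in ConvR livers (0.38, adjusted p = 0.0471, median of the list 0.263). The Ugt1a genes share exons and Gsta1 and Gsta2 are near-identical, so that their values are uncertain. In the interaction 0 of 15 were called. Nqo1, a quinone reductase that NRF2 also induces, averaged 6.20 ± 2.00 CPM in ConvR HF/HS and 3.16 ± 0.51 CPM in GF HF/HS livers and was called in no comparison. Aldh3a1 reached at most 3 counts, and neither it nor Ugt1a7c passed the filter.

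**Figure D4:**
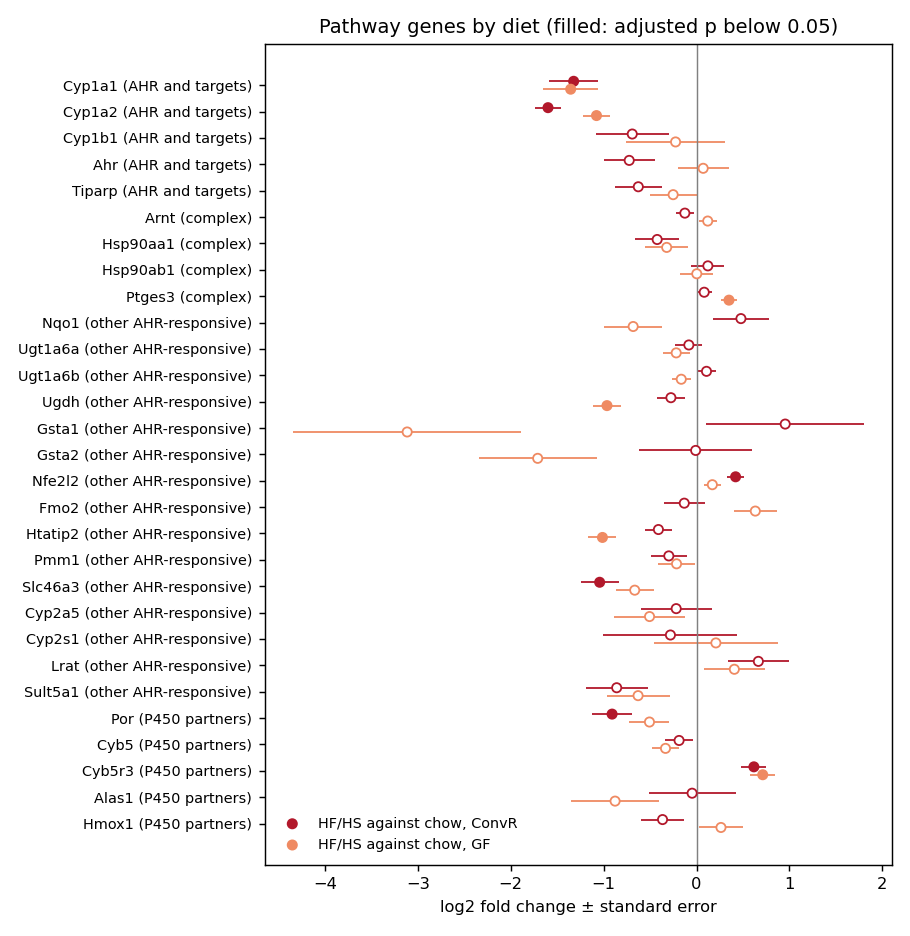
Log2 fold changes with HF/HS against chow (points, with SE) for the members and genes of the receptor complex, other responsive genes and P450 partners, in ConvR (red) and GF (orange) mice, filled where the adjusted p was under 0.05. Cyp1a2 and Cyp1a1 are filled on the lower side in both statuses, and Ugdh and Htatip2 in GF mice.

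The genes most alike to each member were taken as the 4 with the highest Pearson r of log2 CPM over the 15 libraries, among 10049 candidates, as a description. For Cyp1a2 these were Acsm1 (0.954), Epb4.1l4b (0.953), Tk1 (0.949) and Cyp2c29 (0.94), with r on deviations from group means of 0.472, 0.745, 0.72 and 0.649. Cyp2c29, another abundant P450, averaged 674 ± 131 CPM in ConvR HF/HS, 1129 ± 208 CPM in GF HF/HS, 2246 ± 105 CPM in ConvD chow, 1815 ± 181 CPM in ConvR chow and 2027 ± 564 CPM in GF chow livers. For Cyp1a1 they were Rpf2 (0.909), Cyp2b10 (0.905), Tsr1 (0.9) and Naa25 (0.874), of which Tsr1 kept 0.876 within groups and the others 0.344 to 0.443. For Ahr they were Tapbp (0.804), Eif1a (0.785), Birc2 (0.782) and Prox1 (0.766), and within groups r was 0.816, 0.83, 0.919 and 0.841. For Tiparp they were P2rx4 (0.891), Sipa1 (0.879), Fkbp11 (0.874) and Fosl2 (0.873), with 0.856, 0.88, 0.794 and 0.856 within groups. The libraries share their groups and the 2 ConvR chow livers with high acute phase sums. Cyp1b1 was below the mean level of 1 CPM that the rule asked for.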

How the data were processed

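Liver RNA of 15 mice in 5 groups was analysed. Per the submitters' processing notes, the authors used Bowtie2, RSEM 1.2.23 and the mouse build mm9. The deposited expected counts are unscaled RSEM estimates per gene, and RSEM divides reads among similar genes. The deposited TPM are scaled within each library by length and depth. The deposited FPKM were not used.

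The expected counts were rounded and analysed in edgeR 4.0.16 (R 4.3.3). Of 20325 genes, 12377 passed filterByExpr at a minimum count of 10. The model had TMM scaling and 5 group means over all 15 libraries, which left 10 residual degrees of freedom, and a biological coefficient of variation of 0.149. Calls came from edgeR's two-sided quasi-likelihood F test where the p, adjusted by Benjamini-Hochberg over all genes tested, was under 0.05. The SE was the size of the log2 fold change divided by the root of F, and log2 CPM had a prior count of 2. CPM used TMM-scaled totals, and TMM factors lay between 0.9077 and 1.133, the highest in ConvR HF/HS libraries (1.053 or more). The labels give no cage or litter per library, and p-values measure the spread between these libraries only.

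All 5 members are named. From each list, up to 4 called genes with the smallest adjusted p, may be named, and for each member averaging 1 CPM or more the 4 most alike genes among those averaging 2 CPM or more. Other genes that are named to complete a count were chosen after their values were seen. Some listed genes are counted but not reported here by name. Members and lists were chosen with earlier results of these data known. Alternatives were DESeq2 1.42.0 size factors or Wald test, no normalization factors, no filter or a stricter filter (mean of 2 CPM), limma 3.58.1 (voom, or trend on log2(TPM + 1)), compared groups alone, a replicate block, each library left out, ConvR chow 1 and 2 left out, and a length trend (lowess span 0.5) removed. The Cyp1a1 to Cyp1a2 ratio was added after the data were seen. Permutation p-values of correlations came from SciPy 1.17.1 and Python 3.11.15, and figures were drawn with matplotlib 3.10.9. On simulated data for ConvR against GF on chow with 12377 genes, the test recovered 85 of 100 genes at a 2-fold change and 97 of 100 at a 4-fold change, with 5 false calls. The changed genes averaged at least 1 CPM, a level that Cyp1b1 did not reach. Simulated libraries varied independently around GF chow means, with no livers that stood apart as in the ConvR chow group. No pair of libraries agreed within sampling noise.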

Additional observations from a re-analysis of the deposited data

How the results depend on the processing

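Over 35 member results, 849 of 896 alternative values kept their direction and their side of the threshold. The 3 Cyp1a2 calls held in all 26 alternatives. The number of members called for ConvR against GF on chow, 0, was 1 with no normalization factors, by DESeq2 and on TPM, and 0 to 2 with single libraries left out. For ConvD against ConvR it was 1 on TPM. With HF/HS in ConvR mice, 2 became 1 with the stricter filter, which removes Cyp1a1, and 1 without ConvR chow 1 and 2, and 2 to 4 with single libraries left out. With HF/HS in GF mice, 2 became 1 with the stricter filter and with the compared groups fitted alone, and 1 to 2 with single libraries left out. Genes called over the whole table moved with the setting too, so the member counts are not read alone. Of 12377 genes tested, 46 to 1641 were called for ConvR against GF on chow with single libraries left out. With HF/HS these numbers were 991 to 2579 in ConvR mice and 304 to 1444 in GF mice. The causes of these changes were not tested. Leaving out ConvR chow 1 and 2 leaves 1 library there, assumed to vary like the other groups. Reversed signs came only from results that were not called. Without ConvR chow 1 and 2, log2 fold changes were -0.35 for Ahr and -0.51 for Tiparp (ConvR against GF on chow), -0.0054 for Cyp1a2, 0.55 for Cyp1b1 and 0.36 for Ahr (ConvD against ConvR), 0.42 for Cyp1b1 and 0.087 for Ahr (HF/HS in ConvR mice), and 0.64 for Cyp1b1, 0.016 for Ahr and 0.14 for Tiparp (interaction). Tiparp, for ConvR against GF on chow, was -0.054 with no normalization factors, -0.0020 by DESeq2, -0.10 on TPM and -0.0066 with the length trend removed. The length trend gave -0.11 for Ahr in ConvD against GF and -0.037 for Ahr with HF/HS in GF mice, and TPM gave 0.079 for Cyp1a1 in ConvD against ConvR. With single libraries left out, Tiparp ranged between -0.22 and 0.33 (ConvR against GF on chow) and -0.48 and 0.069 (HF/HS in GF mice), Ahr between -0.18 and 0.25 (ConvD against GF) and -0.077 and 0.31 (HF/HS in GF mice), and Cyp1a1 between -0.23 and 0.036 (ConvD against ConvR) and -0.15 and 0.22 (interaction). The mean log2 ratio of Cyp1a1 to Cyp1a2 stayed between 1.15 and 1.40 with single libraries left out and was 1.26 on TPM. Scaling with no normalization factors moved the median over all genes (log2) to 0.165 for ConvR against GF on HF/HS, 0.186 for HF/HS in ConvR mice and 0.221 for the interaction, and TPM moved it to -0.104 for ConvR against GF on chow, 0.209 for ConvD against ConvR, 0.157 for ConvR against GF on HF/HS, 0.296 for HF/HS in ConvR mice and 0.268 for the interaction. Relative to that shift, Cyp1a2 was at -0.99 and -0.95 for ConvR against GF on HF/HS, at -1.60 and -1.51 for HF/HS in ConvR mice, and on TPM at -0.52 for ConvR against GF on chow and 0.24 for ConvD against ConvR.

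Replicate numbers were not taken to pair mice. Same-numbered libraries of different groups correlated at -0.266 to 0.31 in their deviations from group means, and 6 of 15 libraries correlated best with their own number. The replicate block changed no call of a member, with 2 members called with HF/HS in either status, and it gave -0.0015 for Ahr in ConvD against GF. Counts of genes called moved as follows. For ConvR against GF on chow, 584 genes became 0 (groups alone) to 1047 (DESeq2), for ConvD against GF 692 became 11 (groups alone) to 1159 (DESeq2), and for ConvD against ConvR 681 became 6 (without ConvR chow 1 and 2) to 3725 (TPM). For ConvR against GF on HF/HS, 200 became 143 (replicate block) to 791 (TPM), with HF/HS in ConvR mice 1802 became 354 (without ConvR chow 1 and 2) to 6100 (TPM), with HF/HS in GF mice 1182 became 256 (groups alone) to 1538 (DESeq2), and for the interaction 0 became up to 1192 (TPM). With single libraries left out these counts were, in the same order, 46 to 1641, 83 to 982, 16 to 1595, 16 to 454, 991 to 2579, 304 to 1444 and 0 to 450. Depth limits Cyp1a1 and Cyp1b1.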

Other observations

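Enzymes of tryptophan breakdown, a source of ligands of the aryl hydrocarbon receptor, were read from a list of 14 genes, of which 12 could be tested. With HF/HS in ConvR mice 1 was higher (Got2, log2 fold change 0.37) and 2 were lower (Ccbl1, -0.68, and Aadat, -0.54), and in GF mice 1 was lower (Aadat, -0.72). Aadat, a kynurenine aminotransferase, had 96.5, 64.6 and 102 CPM in ConvR HF/HS livers, against 136, 103 and 143 CPM in ConvR chow livers. On chow, Qprt fell in ConvD against GF livers (-0.39) and Afmid rose in ConvD against ConvR livers (0.76). No gene of the 12 was called between ConvR and GF livers on either diet or in the interaction by edgeR.

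Of 5 genes that serve microsomal P450 enzymes with electrons or heme, Por, the P450 reductase, was lower with HF/HS in ConvR mice (-0.91) and Cyb5r3 was higher with HF/HS in ConvR (0.62) and GF mice (0.71). Por had 98.8, 123 and 93.2 CPM in ConvR HF/HS livers, against 226, 242 and 123 CPM in ConvR chow livers, where mice 1 and 2 also had the high acute phase sums. Hmox1, which degrades heme, was higher in ConvR than in GF livers on chow (0.95).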
